A study of Rattus norvegicus with 8 samples.

Results

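The class I pathway of the major histocompatibility complex (MHC) was followed through 6 genes: the class I light chain B2m, the class I heavy chain genes RT1-A2, RT1-CE5 and RT1-CE10, and the immunoproteasome subunits Psmb8 and Psmb9. They were found by symbol, taking every probe set whose only gene symbol in the platform annotation was 1 of these names, which gave 30 of the 80939 probe sets and 6 of the 7830 genes. RNA had been measured on rat exon arrays, 1 per animal, from the whole spinal cords of 8 female, virgin Lewis rats aged 16 weeks. In 4 of them experimental autoimmune encephalomyelitis (EAE), a T cell driven inflammation of the central nervous system, had been induced by injection under the skin at the tail base. The antigen was 50 µg of myelin basic protein (MBP) from guinea pig brain, given in incomplete Freund's adjuvant to which Mycobacterium butyricum had been added at 4.0 mg/ml, and the cords were taken on day 13, at the peak of disease. The other 4 rats were littermates of the same age that received no injection, so the antigen and the adjuvant enter every EAE value together. All 8 rats were of 1 inbred strain and sex.

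Class I molecules display short peptides from inside the cell to CD8 T cells. The heavy chain is encoded by several RT1 genes in the rat and reaches the surface only when it is paired with B2m and loaded with a peptide. The peptides are cut by the proteasome, in which interferon replaces catalytic subunits of the standard enzyme by those of the immunoproteasome, and they are pumped into the endoplasmic reticulum by the transporter Tap1 and Tap2. In the healthy central nervous system class I is known to be low on neurons and oligodendrocytes, and it is known to increase in inflammation.

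The genes lie in 2 places of the rat genome. In the RefSeq annotation of build GRCr8, B2m is at chr3:129549236-129555354 on the plus strand. The other 5 genes are on chromosome 20, in the MHC: RT1-CE10 at chr20:3381377-3385052 (minus strand), RT1-CE5 at chr20:3407880-3484130 (minus), Psmb8 at chr20:4654068-4657049 (minus), Psmb9 at chr20:4668952-4674421 (plus) and RT1-A2 at chr20:4872720-4876425 (plus). Psmb9 and Tap1 are neighbours transcribed away from each other, with start sites 457 bases apart, and Tap1 lies between Psmb9 and Psmb8. The positions of the array's probe sets within exons were not used here.

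Promoter stretches of 5 genes are shown because class I promoters are known for short elements read by interferon-regulated factors and NF-kappaB. They come from RefSeq promoters of build GRCr8, 250 bases before to 50 after a start site, which were found for all 6 members. Each stretch is written on its gene's own strand: B2m chr3:129549145-129549264, RT1-A2 chr20:4872681-4872800, RT1-CE5 chr20:3484161-3484280, RT1-CE10 chr20:3385070-3385189 and Psmb8 chr20:4657012-4657131. Capitals mark matches to GAAANNGAA, GAAGTGAAA, GGGANNNCC or GGACTTTCC on either strand.
B2m: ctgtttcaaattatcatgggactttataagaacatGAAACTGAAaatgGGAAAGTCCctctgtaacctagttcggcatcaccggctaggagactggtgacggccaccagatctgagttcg
RT1-A2: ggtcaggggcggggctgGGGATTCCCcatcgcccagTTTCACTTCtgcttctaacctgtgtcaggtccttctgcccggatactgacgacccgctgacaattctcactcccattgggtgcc
RT1-CE5: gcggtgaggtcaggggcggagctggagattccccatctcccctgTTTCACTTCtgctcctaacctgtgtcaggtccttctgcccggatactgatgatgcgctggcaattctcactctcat
RT1-CE10: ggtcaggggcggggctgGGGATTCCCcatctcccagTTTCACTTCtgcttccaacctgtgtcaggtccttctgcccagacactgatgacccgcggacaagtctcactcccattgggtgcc
Psmb8: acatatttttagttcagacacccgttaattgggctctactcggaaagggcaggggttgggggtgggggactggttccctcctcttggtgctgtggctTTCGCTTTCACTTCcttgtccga

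GAAGTGAAA, the class I form of the interferon-stimulated response element, was present in 4 of the 6 member promoters (RT1-A2, RT1-CE5, RT1-CE10 and Psmb8) and in 0.469% of all 33469 promoters of the table. It was searched as the form known from class I promoters, so its presence in the RT1 genes follows in part from that choice. In each of the 4 it lay on the opposite strand, as TTTCACTTC. The looser GAAANNGAA stood in B2m and Psmb8 and in 9.71% of all promoters; in Psmb8 it overlaps GAAGTGAAA, their starts being 5 bases apart. The classical NF-kappaB letters GGACTTTCC were found in B2m only, against 0.305% of all promoters. The shorter GGGANNNCC was found in RT1-A2 and RT1-CE10, where it reads on both strands, against 18.2%. TTCNNNGAA, the gamma-activated site, stood in the Psmb8 window outside the stretch shown, against 8.87%, and TGACGC in none of the 6, against 6.73%. No motif of the set was in the Psmb9 window, while that of its neighbour Tap1 held GAAANNGAA and GGACTTTCC. The RT1 promoters were alike in 83.5% to 84.2% of aligned bases, so their matches are not separate cases. The reference strain differs from Lewis, whose class I haplotype is another one, and a match describes these letters and no bound factor.

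Values are log2 intensities as deposited. A gene's value on an array is the mean of its measured probe sets, a probe set being measured when at least 4 arrays reached the 25th percentile of the whole table (log2 3.98). EAE was compared with control by limma's moderated test across all 6961 genes with 1 symbol and a measured probe set, 2-sided, at an adjusted p (Benjamini-Hochberg) under 0.05. Olfactory receptor genes, 1048 in number, served as a gauge of background, with all of their 2014 probe sets and no filter. Their 95th percentile in gene values was 4.77 in controls and 4.70 in EAE, and in single probe sets 5.21 and 5.13. At gene level the gauge is thus not the same measure as values averaged over measured probe sets only. Errors of changes are SE and errors of group means are SD over 4 rats.

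RT1-CE5, a class I heavy chain gene of the RT1-C region, changed most. Its gene values in the controls were 3.56, 3.42, 3.77 and 3.62 (rats 193, 194, 195 and 196), and in EAE 8.77, 8.10, 8.50 and 8.44 (rats 217, 218, 219 and 241). Every control value lay under the background gauge and every EAE value far above it. The change was 4.86 ± 0.15 on the log2 scale (adjusted p = 1.21e-08, n = 4 per group, limma), the 14th largest rise of 6961 genes. Because the controls were at background the size of this change rests on dim values; counted from the gauge, the rise was at least 12.8-fold. In whole-cord RNA, more cells of a type and more RNA per cell cannot be told apart.

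Psmb9, the beta-1i subunit of the immunoproteasome, stood at 3.95, 4.18, 3.79 and 3.92 in the 4 controls and at 7.32, 7.35, 7.40 and 7.29 in the 4 rats with EAE. The EAE values were close to each other, with the narrowest EAE spread among the 6 genes (SD 0.046). The change was 3.38 ± 0.11 (adjusted p = 1.40e-08, limma), and the EAE mean lay 5.93-fold over the background gauge. Psmb8, the beta-5i subunit, stood at 3.96, 4.36, 4.26 and 4.36 in controls and at 6.75, 6.21, 6.95 and 6.53 in EAE. Its change was 2.38 ± 0.17 (adjusted p = 3.80e-06, limma), and its EAE mean lay 3.57-fold over the gauge. Neither fold is a lower bound, since the gauge was taken without the filter and both gene values with it. Without the filter the changes were 2.99 for Psmb9 and 1.94 for Psmb8. For both subunits all control values were under the gauge and the groups did not overlap.

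RT1-A2, a gene of the classical RT1-A region, had gene values above background in all rats, though 1 of its 2 probe sets was at background in controls. Its values were 6.22, 6.61, 6.35 and 6.22 in controls and 7.44, 6.78, 7.12 and 7.17 in EAE, a change of 0.78 ± 0.15 (1.72-fold, adjusted p = 0.00367, limma). The lowest EAE rat, 218, still lay above the highest control, 194. B2m was bright in every cord, at 11.75, 11.94, 11.66 and 12.04 in controls and 12.48, 12.25, 12.37 and 12.62 in EAE. It rose by 0.59 ± 0.12 (1.50-fold, adjusted p = 0.00560), again without overlap. RT1-CE10, a further heavy chain gene of the RT1-C region, had values of 5.46, 5.70, 5.81 and 5.42 in controls and 6.38, 5.80, 6.56 and 5.99 in EAE. The groups overlapped, since EAE rat 218 was below control rat 195, and the change of 0.58 ± 0.18 passed with an adjusted p of 0.0303. With the measured probe sets kept, it no longer passed when control 193, 194 or 196 or EAE rat 217 or 219 was left out (changes from 0.46 to 0.62), and without a filter on dim probe sets the change was 0.31 (adjusted p = 0.128).

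**Figure D1:**
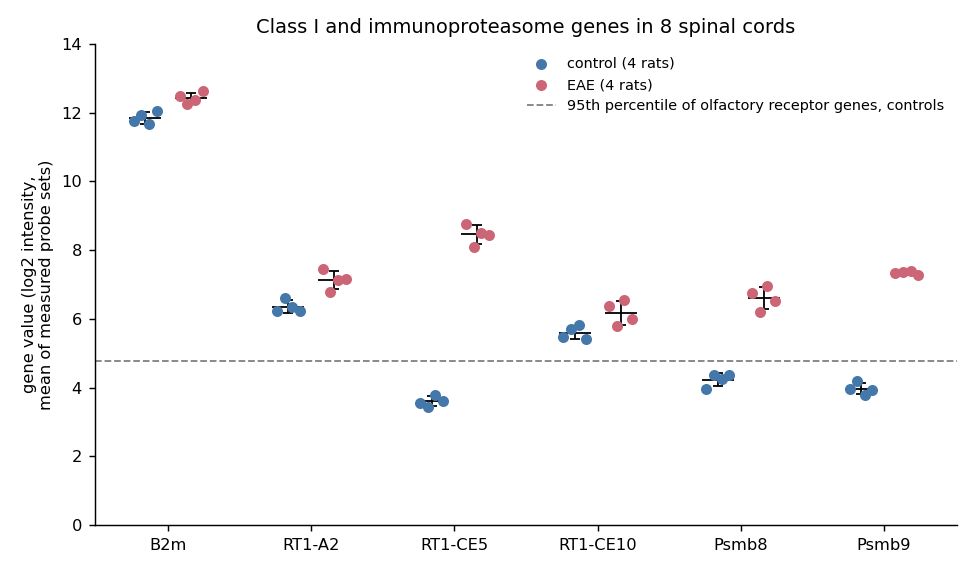
Gene values (log2 intensity) of the 6 genes on 8 arrays. Blue points are the 4 control rats and red points the 4 rats with EAE; bars give the mean and SD, and the dashed line is the background gauge in controls (4.77). RT1-CE5, Psmb8 and Psmb9 go from under the line to values of 6.21 or more, whereas B2m is bright in both groups and the groups overlap in RT1-CE10.

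All 6 genes thus passed as higher, where 13.7% of all genes did. Of the 6, 5 had every EAE rat above every control, where 14.1% of all genes did. RT1-CE5, Psmb8, Psmb9 and RT1-CE10 hold probe sets that were measured only through their EAE values, so these counts carry the filter's effect and each gene is described below with all of its probe sets. The members were also chosen with earlier results of these data known. Neither these counts nor those of their probe sets below are therefore independent support. The median change over all genes was -0.11, and 6.42% of them rose by 1 or more.

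The size of the measured change ranged widely between the members. In descending order, RT1-CE5 stood 1.48 above Psmb9, Psmb9 1.01 above Psmb8 and Psmb8 1.60 above RT1-A2 on the log2 scale. RT1-A2 and B2m differed in change by 0.19, close to their SE of 0.15 and 0.12, and B2m and RT1-CE10 by under 0.01. The order was read from the changes themselves and is given without a test. RT1-CE5, Psmb9 and Psmb8 started from background, where log2 changes of array intensities are known to be compressed, and B2m started near the top of the scale, so the steps between them describe these intensities only.

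Over the 30 probe sets, all fitted without a filter among the 80939 of the table, 18 rose, 0 fell and 12 did not pass (limma, adjusted p under 0.05), where 7.86% of all probe sets rose. Every EAE rat was above every control in 21 of the 30, where 9.37% of all probe sets showed that order. With the filter, 25 of the 30 were measured and 17 of these rose, against 10.2% of all measured probe sets, but 6 of the 25 were measured only through their EAE values. Control means were at background in 22 of the 30 probe sets, and both groups' means in 8. Within a gene the changes ranged widely, and they are given gene by gene.

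**Figure D2:**
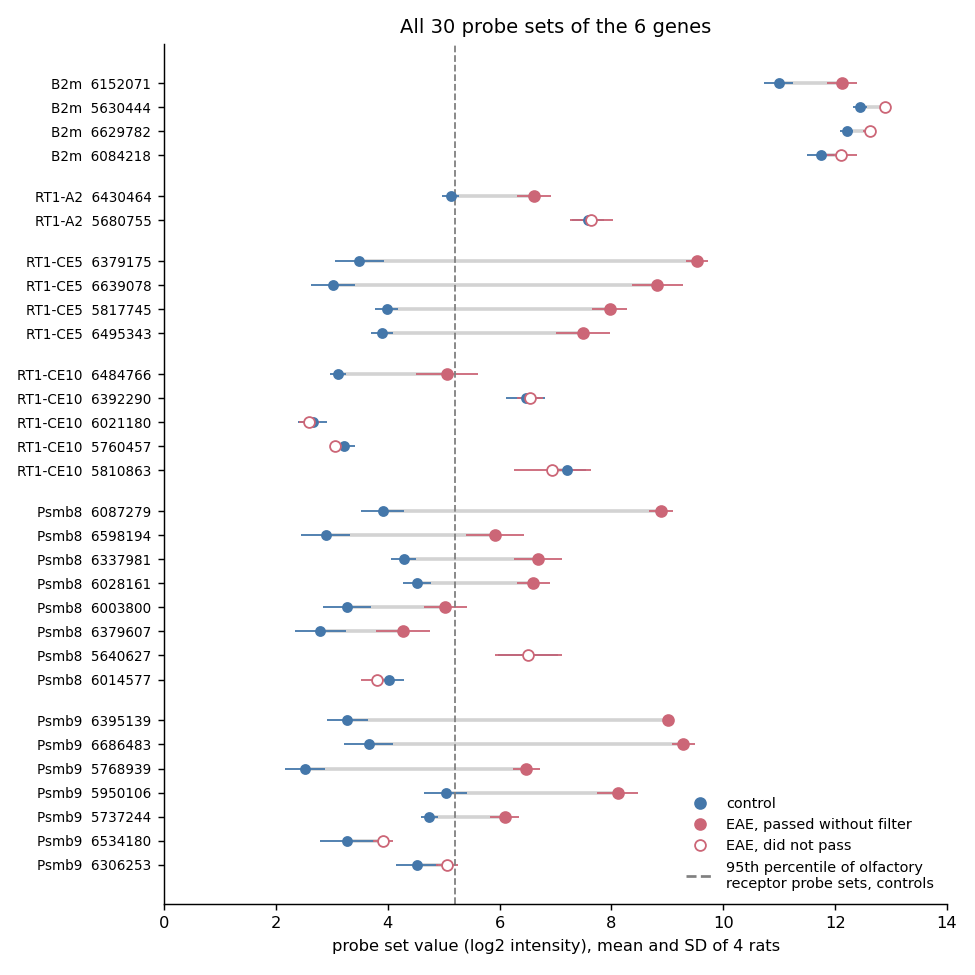
Mean log2 intensity and SD of 4 rats for all 30 probe sets, controls in blue and EAE in red, filled where the unfiltered fit passed. The dashed line is the 95th percentile of olfactory receptor probe sets in controls (5.21). All 4 probe sets of RT1-CE5 cross the line, while 3 probe sets of B2m, 1 of RT1-A2, 4 of RT1-CE10, 2 of Psmb8 and 2 of Psmb9 did not pass.

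For RT1-CE5 all 4 probe sets rose, by 6.04, 5.80, 3.99 and 3.60. Probe set 6379175 read 3.39, 3.04, 4.09 and 3.43 in controls and 9.69, 9.66, 9.51 and 9.26 in EAE. The least changed, 6495343, read 4.14, 3.73, 3.96 and 3.74 against 7.81, 6.87, 7.93 and 7.37. Neither had overlapping groups, and the 4 probe sets changed by unequal amounts (limma diffSplice F test, adjusted p = 3.11e-07, where 26.6% of the 5563 genes tested passed). Probe set 6639078 was measured only through its EAE values, so this p carries the filter's effect. Each of the 4 was at background in controls.

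RT1-A2 had only 2 probe sets, too few for that test, and they parted. Probe set 6430464 read 5.01, 5.22, 5.28 and 4.98 in controls and 7.0, 6.41, 6.72 and 6.34 in EAE, a rise of 1.50 ± 0.19 (adjusted p = 0.000442, unfiltered limma fit). Its control mean of 5.12 lay under the probe set gauge of 5.21, from which the rise was at least 2.65-fold. Probe set 5680755 read 7.43, 8.01, 7.41 and 7.46 in controls and 7.87, 7.15, 7.52 and 8.00 in EAE, a difference of 0.06 ± 0.23 with overlapping groups. The gene's change is thus the mean of a rise from background and of a value near 0. A further probe set, 6255552, is annotated to both RT1-A2 and RT1-A3 and was not counted among the 30; it was dim and differed by -0.26 (adjusted p = 0.431).

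For RT1-CE10 the gene-level call came from 1 of 5 probe sets. Probe set 6484766 read 2.98, 3.11, 3.32 and 3.06 in controls and 5.52, 4.31, 5.43 and 5.0 in EAE, a rise of 1.95 ± 0.26 (adjusted p = 0.000574, unfiltered limma fit), with both group means under the probe set gauge. The brighter pair did not pass: 6392290 differed by 0.07 ± 0.21 and 5810863 by -0.26 ± 0.32. In 5810863 the EAE rats spread from 6.20 to 7.85 around the control values of 6.97 to 7.71. The last 2, 6021180 and 5760457, were at background in both groups and differed by -0.06 and -0.16. Unequal change among the 3 measured probe sets passed (limma diffSplice adjusted p = 0.000133), but through 6484766, which was measured only by its EAE values; at a filter on the 50th percentile 3 members passed that test in place of 4. RT1 class I genes are near-identical in much of their sequence, and which transcripts of the Lewis haplotype each probe set binds was not tested.

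Psmb8 had 8 probe sets, of which 6 rose in the unfiltered fit, by 1.47 to 4.97. The smallest of these rises, in 6003800 and 6379607 (1.75 and 1.47), had both group means at background. The largest, 6087279, read 3.67, 4.12, 3.51 and 4.34 in controls and 9.13, 8.68, 8.74 and 8.99 in EAE. Every EAE rat lay far above every control. By contrast 5640627 read 5.74, 6.66, 6.96 and 6.67 in controls and 6.89, 6.33, 7.08 and 5.75 in EAE, a difference of 0.01 ± 0.33 at a level above background in both groups. The last, 6014577, stayed at background in both groups and differed by -0.21 ± 0.21. The measured probe sets of Psmb8 changed by unequal amounts (limma diffSplice adjusted p = 1.01e-12). Among them 6598194 and 6003800 were measured only through their EAE values, so this p carries the filter's effect.

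Psmb9 had 7 probe sets, and all differed upward, by 0.54 to 5.74, with 5 past the threshold. Probe set 6395139 read 3.68, 3.43, 2.84 and 3.13 in controls and 9.06, 9.02, 8.99 and 8.97 in EAE, where the 4 rats were nearly equal (SD 0.040). The next, 6686483, rose by 5.62 ± 0.23. The smallest rise that passed was that of 5737244, by 1.34 ± 0.18, from 4.74 ± 0.16 to 6.09 ± 0.27. Probe sets 6306253 and 6534180 differed by 0.54 and 0.65 and did not pass, and both were at background in both groups. Across the measured probe sets the changes were unequal (limma diffSplice adjusted p = 7.70e-21). That test included 6395139 and 5768939, which were measured only through their EAE values, so its p carries the filter's effect. For genes that start at background, a dim probe set can follow its gene less, and how far this or exon usage enters was not tested.

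B2m had 4 probe sets, all bright: their control means stood between the 98.5th and 99.9th percentile of all probe sets. Probe set 6152071, the least bright of them, read 10.97, 11.06, 10.66 and 11.28 in controls and 12.31, 11.94, 11.85 and 12.40 in EAE, a rise of 1.13 ± 0.20 (adjusted p = 0.00376, unfiltered limma fit). The other 3 differed by 0.36 to 0.44 and did not pass (adjusted p from 0.0781 to 0.266). In 2 of these 3 all EAE rats were above all controls. Unequal change among the 4 did not pass (limma diffSplice adjusted p = 0.0763). Whether saturation of bright probes narrows the B2m change was not tested.

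The immunoproteasome subunits were set against the standard proteasome. The constitutive counterparts Psmb5 and Psmb6 and the remaining inducible subunit Psmb10 were not analysed here, so the mean of 11 constitutive core genes took their place. That mean was 9.0 ± 0.07 in controls and 9.23 ± 0.06 in EAE, a difference of 0.22. Psmb8 minus this mean was -5.10, -4.72, -4.67 and -4.61 in controls and -2.42, -3.09, -2.24 and -2.73 in EAE. Psmb9 minus this mean was -5.10, -4.90, -5.13 and -5.05 against -1.84, -1.94, -1.79 and -1.97. These differences between probes have no meaning as levels. Their shift is the excess of the subunit's change: 2.15 for Psmb8 and 3.16 for Psmb9. The comparison was chosen after the data were seen, when both subunits already separated the groups. Its exact permutation p (0.0286 for each, the smallest that 4 against 4 arrays allow, adjusted over the pair 0.0286) therefore adds no support. Each subunit's value also includes 2 probe sets measured only through their EAE values. Without a filter the excess was 1.75 for Psmb8 and 2.80 for Psmb9. Counted from the background gauge, since both subunits were dim in controls, the excess was 1.61 and 2.34. These are not lower bounds, because the gauge was taken without the filter and the subunit values with it. Both shifts were larger than the spread between rats. That the groups did not overlap adds no support either, since both subunits already separated them and the core mean moved little.

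Among the core genes themselves 4 of 11 rose and 0 fell, where 13.7% of all genes rose, with a median change of 0.26. The count was 2 after median centring and 1, Psmb4, when each gene was summarised by its median probe set. Psmb4 (0.41 ± 0.10) and Psmb2 (0.37 ± 0.11), of the beta rings, and Psma5 (0.36 ± 0.12) and Psma7 (0.30 ± 0.09), of the alpha rings, passed. Psmb7, which carries the trypsin-like site of the standard enzyme, differed by 0.33 ± 0.18 (limma adjusted p = 0.190), and Psma6 and Psmb3 by -0.02 and under 0.01 in size. Of 14 genes of the regulatory particle and other proteasome activators, 0 rose and 4 fell, where 17.4% of all genes fell, with a median of -0.10 close to that of all genes. Psmc5 and Psmc1, ATPases of the base, fell by 0.65 and 0.54, and Psmd12 and Psmd6, subunits of the lid, fell by 0.57 and 0.38. Psmc4, a further ATPase, differed by 0.41 ± 0.23 and did not pass.

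Of the genes that supply and load class I peptides, 15 of 21 listed were on the array and tested. Of these 8 rose, 0 fell and 7 did not pass, with a median change of 0.49, where 13.7% of all genes rose and 17.4% fell. Tap1, Tap2 and Tapbp were at background in controls, so the sizes of their changes rest on dim values. The transporter subunits rose: Tap1 went from 4.32 ± 0.038 to 6.54 ± 0.060 (2.22 ± 0.09, adjusted p = 4.93e-08, limma) and Tap2 rose by 1.28 ± 0.16. Calr, a chaperone of the loading complex, rose by 1.07 ± 0.18, and Psme1, a subunit of the interferon-inducible proteasome activator PA28, by 1.07 ± 0.16. Tapbp, which tethers the heavy chain to the transporter, Erap1, which trims peptides, Lap3, a cytosolic aminopeptidase, and Pdia3, a loading-complex disulfide isomerase, rose by 0.92, 0.91, 0.70 and 0.49. The peptidases Ide and Tpp2 (-0.29 and -0.24), Nrd1, Lnpep and Blmh, and the chaperones Canx and Hspa5, did not pass.

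Genes known to drive class I transcription or to carry the interferon signal were higher in part. Of 12 tested 9 rose and 0 fell, with a median change of 1.13, where 13.7% of all genes rose and 17.4% fell. In controls 4 of the 12 (Irf1, Irf8, Ifng and Ifnb1) were at background. Irf1, an interferon-induced transcription factor, rose by 3.05 ± 0.11, Irf8, a factor of myeloid cells, by 2.43 ± 0.10, Stat2, a subunit of the interferon-activated complex, by 2.02 ± 0.13, and Ifngr1, a chain of the interferon-gamma receptor, by 1.94 ± 0.14. Ifng, the cytokine itself, rose from a background value of 4.09 to 5.47 (1.37 ± 0.19). Rfxank, Creb1 and Ifnb1 differed by 0.15, -0.23 and -0.24 and did not pass. The other genes of the 22 listed were not analysed here.

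Of class I-like genes, some of whose products also pair with B2m, 0 of 5 tested passed in either direction (limma), with changes from -0.53 (Azgp1) to 0.37 (Raet1l), and 2 of the 5 were at background in controls. At an unadjusted p under 0.05, 2 of the 5 differed. Without the filter or after median centring 1 of them, Azgp1, passed as lower; 2 passed as higher at the 50th percentile filter, and 1 by the median probe set or with array weights. Of 15 other RT1 class I genes tested 3 rose, not far from the 13.7% of all genes. Of the same 15, 1 fell, where 17.4% of all genes did, and the median change was 0.26. RT1-A1 was not tested, since neither of its 2 dim probe sets was measured. Without the filter these differed by 1.06 and 0.97 (limma adjusted p = 0.0471 and 0.0628), with overlapping groups. Without the filter 4 of the other RT1 class I genes rose and 1 fell. RT1-CE15 rose by 1.42 ± 0.20, RT1-N3 by 1.34 ± 0.13 and RT1-N2 by 0.57 ± 0.16, the last no longer passing at the 50th percentile filter or without moderation. The gene that passed as lower, RT1-O, had 1 measured probe set and was at background in both groups, and it did not reach the 50th percentile filter. In controls 8 of the 15 were at background, and 6 of them in EAE. RT1-CE4 (-0.29 ± 0.20) and RT1-CE3 (0.21 ± 0.32), named like RT1-CE5 for the RT1-C region, did not pass.

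**Figure D3:**
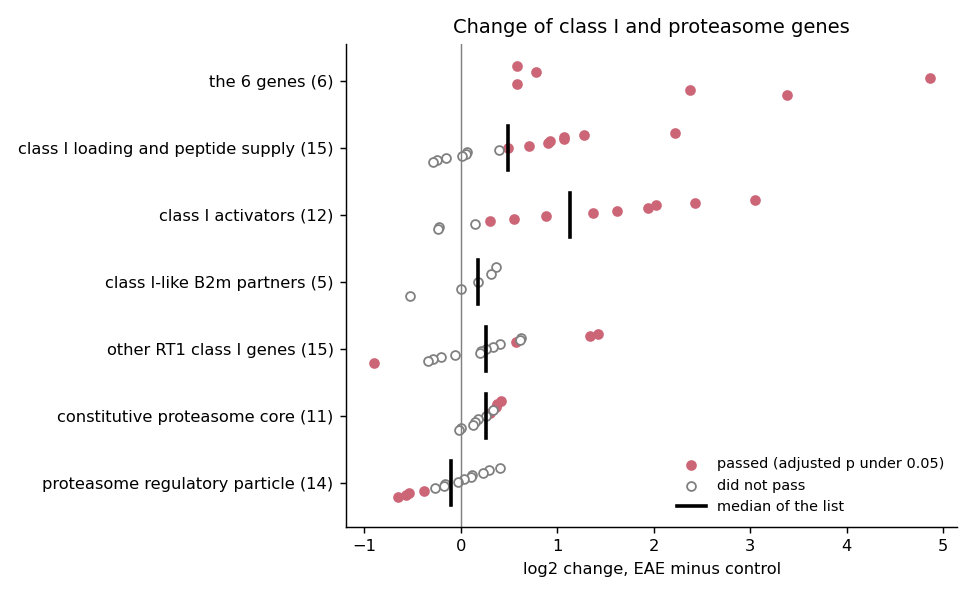
Log2 change (EAE minus control) of each tested gene of the class I and proteasome lists, with the number tested in brackets. Red points passed the limma test and open points did not; the black bar is the list's median. Changes of the regulatory particle lie between -0.65 and 0.41, while class I activators reach 3.05.

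The cords with EAE also differed in markers of infiltrating and resident cells, and the part of these cells in the values above was not tested. The counts stand beside shares over all genes of 13.7% that rose and 17.4% that fell. Of T cell markers 8 of 9 tested rose, with a mean list level of 4.07 to 4.48 over controls and 5.88 to 6.07 over EAE rats. Cd8a and Cd8b, the chains of the receptor that binds class I, rose by 2.29 ± 0.19 and 1.90 ± 0.14. All 7 monocyte and macrophage markers rose (5.50 to 5.80 against 8.54 to 9.04), as did all 4 microglia markers (6.63 to 7.03 against 8.40 to 8.52). Of 8 NK markers 2 rose and 1 fell (4.63 to 5.30 against 5.42 to 5.73). The one that fell, Prf1, which encodes perforin, changed by -0.57 ± 0.16 but by 0.10 without the filter on dim probe sets. Klrk1, a receptor for class I-like ligands, rose by 4.21 ± 0.16, the largest change of the NK list, whose median change was 0.11. Of 4 neutrophil markers 1 rose, Fcnb, by 4.01 ± 0.20 (list level 4.17 to 4.99 against 5.64 to 5.74). S100a9, S100a8 and Il8rb differed by 0.34, 0.07 and -0.50 and did not pass, so the rise of that list's mean rests on Fcnb. For B cells 1 of 1 marker rose (4.63 to 4.92 against 5.05 to 5.22), and 0 of 2 dendritic cell markers passed (4.99 to 5.49 against 5.08 to 5.36). In controls 8 of 9 T cell markers and 3 of 7 monocyte markers were at background.

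Markers of the cord's own cells were well above background in all rats. Their counts stand beside the 17.4% of all genes that fell and the 13.7% that rose. Of 8 neuron markers 6 fell (mean list level 9.61 to 10.00 in controls and 8.99 to 9.38 in EAE), and of 8 oligodendrocyte markers 4 fell (8.90 to 9.50 against 8.67 to 9.02). Of 7 astrocyte markers 3 rose (9.57 to 10.34 against 9.98 to 10.41), and of 4 endothelial markers 1 rose and 1 fell (6.87 to 7.37 against 6.91 to 7.16). Array means were nearly equal, from 5.768 to 5.770, and the SD of the values ran from 2.11 in control rat 195 to 2.26.

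The 4 rats with EAE kept a partial order across the members. Rat 218 had the lowest EAE value in 5 of the 6 genes, by 0.18 (B2m) to 0.40 (Psmb8) under the EAE mean, and in 17 of the 30 probe sets, while it was lowest in 29.3% of all genes. The exception was Psmb9, in which rat 241 was lowest and all 4 rats were close. Rat 217 was highest in RT1-A2 and RT1-CE5, rat 219 in RT1-CE10, Psmb8 and Psmb9, and rat 241 in B2m. The array of rat 218 had the smallest SD of the EAE arrays (2.17) and the highest median of olfactory receptor probe sets among them (3.49, against 3.16 to 3.38). Rat 218 also had the highest mean of T cell markers (6.07) and of monocyte and macrophage markers (9.04) and the lowest mean of neuron markers (8.99) among the EAE rats. Leaving this rat out at the filter of all 8 arrays moved the RT1-CE10 change to 0.71 and that of Psmb8 to 2.51.

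**Figure D4:**
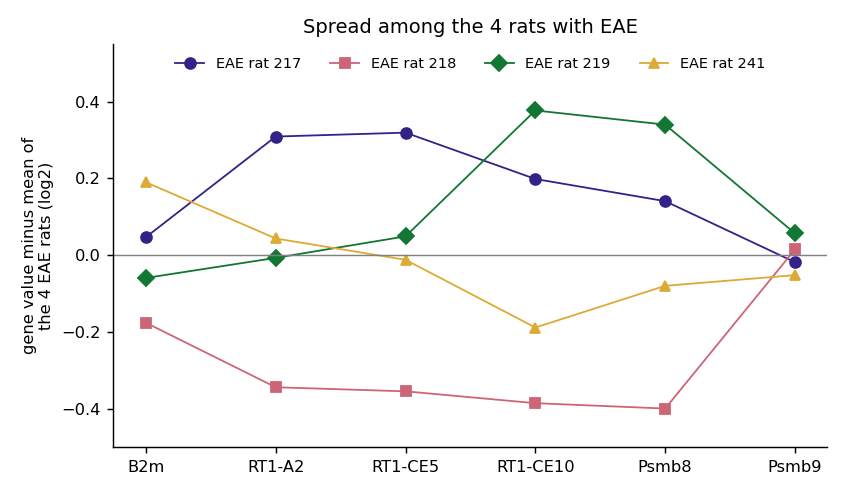
Gene value of each rat with EAE minus the mean of the 4 (log2), for the 6 genes. Lines join the values of 1 rat and have no meaning between genes. Rat 218 is lowest in every gene except Psmb9, where the 4 rats lie between -0.05 and 0.06.

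Genes whose values over the 8 arrays most resembled the mean of the 6 scaled member profiles were Olr1 (Pearson r = 0.994), the receptor for oxidised low-density lipoprotein, Il10ra (0.993), the interleukin-10 receptor chain, Hn1 (0.992), Zc3hav1 (0.991), an antiviral zinc finger protein, and Trpm2 (0.990), a cation channel. They rose by 1.76, 1.40, 0.76, 1.52 and 2.14. The 8 points fall into 2 separate groups, so these coefficients mostly describe the step between control and EAE and are given without a test.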

How the data were processed

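The values deposited by the authors are log2 probe set intensities of 8 exon arrays (4 per group). Per the submitters' processing notes, the tools were RMA, Affymetrix Expression Console and Partek; their roles and versions and the genome build are not given in the sources used here. Array number limits precision, since arrays have no read depth.

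Probe sets were joined to symbols through the platform annotation: 76186 had 1 symbol, and 62176 of 80939 were measured. Genes, probe sets and unequal change (diffSplice, at least 3 measured probe sets) were fitted across the whole table with limma 3.58.1 in R 4.3.3. Exact permutation tests enumerated 70 assignments of arrays. No litter or batch is labelled per rat. Scripts were tested on simulated data.

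The rule for named genes took the members, up to 4 passing genes per list with the largest change, up to 2 in the other direction, Psmb7 and the 5 most alike genes; further genes were named after their values were seen. Members and lists were chosen with earlier results of these data known. The planned comparisons with Psmb5, Psmb6 and Psmb10 were replaced by one with the constitutive core. Promoters are RefSeq's (GRCr8), searched and aligned with Biopython 1.88. Figures were drawn with matplotlib 3.10.9. Alternatives covered the filter, scaling, gene summary, variance model, array weights and each array left out.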

Additional observations from a re-analysis of the deposited data

Results flagged for a closer look

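In 222 groups of 4 rats, 13 held a rat whose gap to the nearest other took more of the group's range than Dixon's 95% critical value; chance gives about 1 in 20 groups. Among member probe sets, RT1-A2 5680755 read 8.01 in control 194 (others 7.41 to 7.46), RT1-CE10 6021180 read 2.88 in EAE rat 219 (others 2.49 to 2.51), Psmb8 6598194 read 3.54 in control 194 (others 2.57 to 2.74) and Psmb8 6014577 read 4.25 in EAE rat 241 (others 3.65 to 3.67). All of these but RT1-A2 5680755 were at background in the group concerned.

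Among gene values, EAE rat 217 stood apart in Calr (9.57, others 9.21 to 9.23), Psme1 (8.09, others 8.52 to 8.57) and Psma5 (8.81, others 9.11 to 9.15). EAE rat 218 stood apart in Psmc1 (7.78, others 8.28 to 8.32) and Cd3d (6.25, others 5.54 to 5.61). Control rat 195 stood apart in Ide (7.59, others 7.99 to 8.06), Gfap (8.56, others 9.05 to 9.11) and RT1-M1-2 (5.91, others 5.18 to 5.26), and control rat 193 in Il8rb (4.07, others 4.87 to 4.99).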

How the results depend on the processing

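RT1-A2, RT1-CE5, Psmb8 and Psmb9 stayed higher and past the threshold in all 24 alternatives run for each, with changes of 0.68 to 0.89, 4.45 to 5.05, 1.94 to 2.51 and 2.61 to 3.95. B2m did so in 23 of 24: by its median probe set its change was 0.43 (limma adjusted p = 0.0585). RT1-CE10 held in 8 of 24. The log2 change of RT1-CE10 was 0.31 without a filter, 0.58 without moderation (adjusted p = 0.0774), -0.10 at the 50th percentile filter and -0.078 by the median of probe sets. Leaving out 1 array gave -0.23 to 0.71. It turned negative when any EAE array was left out with the filter computed anew, because probe set 6484766 then no longer reached 4 arrays. The cause of the other shifts of RT1-CE10 was not tested. The lowest changes of Psmb9 (2.61, without EAE rat 218) and RT1-CE5 (4.45, without EAE rat 217) came with the same loss. Psmb9 6395139 and 5768939 and RT1-CE5 6639078 were also measured only through their 4 EAE values. By the same construction 11 to 17 member probe sets passed when 1 array was left out (17 with all). The number of genes lower in EAE was 1213, but 792 when a gene was summarised by its median probe set and 1873 with array quality weights. Among named genes Prf1 turned from -0.57 to 0.10 without a filter. The excess over the core (Psmb8 minus constitutive core, EAE minus control, and Psmb9 minus constitutive core, EAE minus control), chosen after seeing the data, ran from 2.03 to 2.31 for Psmb8 and 2.39 to 3.21 for Psmb9 when 1 array was left out; Psmb8 was lowest without a filter (1.75) and Psmb9 highest at the 50th percentile filter (3.71). No paired analysis was possible because the labels give control and EAE rats no shared replicate numbers. The planned comparisons with Psmb5, Psmb6 and Psmb10 were not run. RT1-CE5, Psmb8, Psmb9 and RT1-A2 probe set 6430464 were at background in controls, so their measured changes rest on dim values.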
